A study of Mus musculus with 4 samples.

Results

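The muscleblind and CELF genes and 5 other genes for RNA-binding splicing regulators were followed in CD69+DP thymocytes, which are CD4+CD8+ cells that have received a TCR signal and express CD69. The 10 genes are *Mbnl1*, *Mbnl2*, *Mbnl3*, *Celf1*, *Celf2*, *Rbfox2*, *Qk*, *Ptbp1*, *Ptbp3* and *Khdrbs1*, out of 24421 genes listed. They were chosen by family and role, with the higher level of *Mbnl1* in Foxa1/2cKO already known. Their differences between the genotypes are therefore given as a description, with standard errors and no p-value for any of them, and the number called is given only beside that of all genes.

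Muscleblind proteins are zinc-finger proteins that bind YGCY-type elements in pre-mRNA, and they promote inclusion or skipping of an exon depending on where they bind. CELF proteins bind GU-rich elements and act on many of the same exons in the opposite direction, and the balance between both families is best known from heart and skeletal muscle development and from myotonic dystrophy, in which muscleblind proteins are sequestered on expanded repeats. RBFOX, quaking, PTB and Sam68 proteins are further regulators of tissue-specific exons, each with its own binding element.

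Cells were sorted from the thymus of C57BL/6-background mice aged 6 weeks, with 2 samples per genotype. Control mice carried loxP-flanked alleles of both *Foxa1* and *Foxa2* and no CD4Cre transgene, and Foxa1/2cKO mice carried the same floxed alleles together with CD4Cre. CD4Cre is expressed from *Cd4* regulatory sequences, so that recombination occurs in T-lineage cells around the DP stage and not in thymic epithelium. The paper states that samples were sorted independently, from different mice, and that a sort used 2 mice of each genotype. It is not clear from the sources used here whether a sample held cells of 1 mouse or of several, or which samples shared a sort.

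Levels are in FPKM, which count fragments against gene length and sample depth, so levels of different genes can be compared as far as the gene lengths used hold. The 4 samples held between 10458206 and 14582591 recovered reads. *Foxa1* and *Foxa2* were listed at 0 in all 4 samples, so these values do not check the genotype labels, and *Foxa3* had 1 read in 1 control. All 9 thymocyte markers were present, with *Cd69* at 103 to 121 FPKM, *Cd4* at 342 to 446 FPKM and *Cd8a* at 475 to 666 FPKM. Of these 9 markers 3 did not overlap between the genotypes, against 36.7% of the 10776 genes with at least 1 FPKM in at least 2 samples. *Cd8b1*, a CD8 coreceptor chain gene, was at 592 and 613 FPKM in control and 668 and 974 FPKM in Foxa1/2cKO, and *Rag2*, a recombinase gene, at 36.8 and 37.9 against 39.9 and 39.9 FPKM. *Ptcra*, the pre-TCR alpha chain gene, was lower in Foxa1/2cKO, at 11.2 and 11.9 against 7.44 and 3.23 FPKM. Summed thymocyte marker FPKM was highest in Foxa1/2cKO 2, at 3151 against 2454 to 2529 in the other samples. *Cd8b1* was the largest term of this sum in every sample, and its FPKM rest on a gene length of 166 bases. The part of these marker differences in the values given here was not tested. Of the markers of other cells, all 4 B cell markers and 4 of 5 myeloid markers reached 1 FPKM in at least 2 samples. Summed B cell marker FPKM was 73.1 and 48.7 in control and 99.4 and 52.2 in Foxa1/2cKO, and summed myeloid marker FPKM was 20.8 and 12.6 in control and 20.98 and 10.6 in Foxa1/2cKO, so both overlapped between the genotypes. Of 4 erythroid markers 1 reached that level and 2, *Hba-a1* and *Hba-a2*, were at 0, and of 5 thymic epithelial markers only *Epcam* reached it. *Epcam* did not overlap between the genotypes, at 2.76 and 2.89 FPKM in control and 3.86 and 3.37 FPKM in Foxa1/2cKO. Summed thymic epithelial marker FPKM was 3.26 and 3.18 in control and 4.18 and 3.69 in Foxa1/2cKO, while the erythroid sum overlapped. The part of *Epcam*-expressing cells in the values given here was not tested. The Foxa1/2cKO samples differed more from each other than the controls did, with an SD over genes of the log2 difference between samples of 0.405 against 0.198. All 9 of the genes tested here followed that order. The share of all genes that did so was not computed, so this count does not set the 9 genes apart.

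*Mbnl1*, which encodes the most abundant of the muscleblind proteins in many tissues, was at 83.3 and 88.2 FPKM in the control samples and at 152 and 172 FPKM in the Foxa1/2cKO samples. Both Foxa1/2cKO samples lay far above both controls, and the gap between the genotypes was wider than either gap within a genotype. The means were 85.7 ± 3.46 FPKM (SD, n = 2) in control and 162 ± 14.3 FPKM (SD, n = 2) in Foxa1/2cKO, a 1.89-fold ratio. On the scale of log2(FPKM + 1), the difference was 0.91 with a standard error of 0.10. It was 0.82 without Foxa1/2cKO 2 and 1.0 without Foxa1/2cKO 1. In reads, 7240 and 6953 were recovered in control and 9543 and 11107 in Foxa1/2cKO, although the Foxa1/2cKO libraries held fewer reads. Counting error was at most 1.20% of the value in any of these samples. In bulk RNA, more RNA per cell and more cells of a kind that expresses the gene cannot be told apart.

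*Mbnl1* spans 60472830 to 60629750 of chromosome 3 on the plus strand of mm10, with 25 annotated transcripts, and the FPKM rest on a gene length of 5809 bases. Of the 50-base stretches of its longest transcript, 0% occurred in another annotated gene. Levels here are sums over all transcripts of a gene, and the shares of its isoforms were not analysed here. Annotated start sites of *Mbnl1* include a pair with very different upstream sequence. The 250 bases before each are shown 5′ to 3′ because *Mbnl1* had the largest difference of the 10 genes and the targeted genes encode forkhead factors, with a forkhead-type motif in capitals. Sequences are from RefSeq on GRCm38.p6, plus strand, at chr3:60472580-60472829 and chr3:60500929-60501178.
*Mbnl1* first start: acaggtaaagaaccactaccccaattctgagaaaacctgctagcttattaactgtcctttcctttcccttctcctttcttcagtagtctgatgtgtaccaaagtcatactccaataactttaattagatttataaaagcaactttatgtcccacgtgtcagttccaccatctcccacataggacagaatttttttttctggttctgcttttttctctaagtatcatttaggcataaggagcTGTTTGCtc
*Mbnl1* second start: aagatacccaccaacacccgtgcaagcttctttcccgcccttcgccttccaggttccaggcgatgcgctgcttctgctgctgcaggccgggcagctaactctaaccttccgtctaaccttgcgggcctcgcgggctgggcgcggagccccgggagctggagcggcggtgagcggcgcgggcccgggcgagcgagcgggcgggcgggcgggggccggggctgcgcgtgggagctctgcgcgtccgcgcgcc

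The first window had a GC content of 38.0% and 1 CpG, and the second had a GC content of 73.6% and 33 CpG, against medians of 52.4% and 6 CpG over the 32851 windows of the table. Each window was searched on both strands for 4 forkhead-type motifs. The motif TGTTTGC was found in the first window, beginning 9 bases before the start site, and occurs in 4.30% of all windows. The motif TGTTTAC occurs in 3.17% of windows, the motif TATTTAC in 2.73% and the motif TATTTGC in 2.50%, and any of the 4 in 11.9%. The second window held none of them. Of the 10 genes, 7 had windows, 12 in all, and 1 of the 12 (8.33%) held a motif. A match is a description of the letters and not a binding site, and which start site is used cannot be read from gene-level FPKM.

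**Figure D1:**
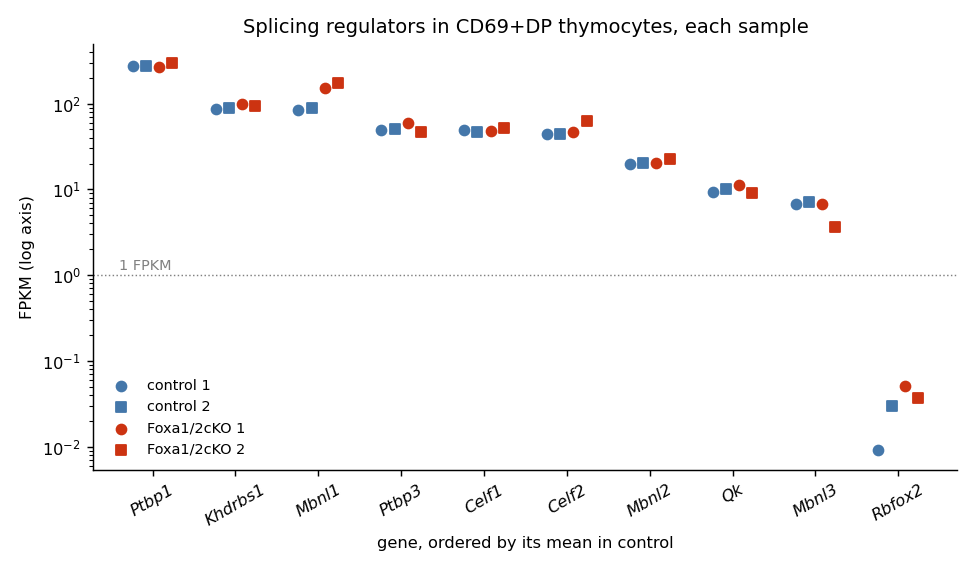
FPKM on a log axis of each of the 10 genes in each of the 4 samples, with control in blue and Foxa1/2cKO in red and genes ordered by their mean in control. *Ptbp1* was highest at 265 to 295 FPKM, *Mbnl1* stood apart between the genotypes at 83.3 and 88.2 against 152 and 172 FPKM, and *Rbfox2* stayed under 0.1 FPKM.

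*Mbnl2*, the paralog best known for its role in the brain, was at 19.8 and 20.6 FPKM in control and at 20.4 and 22.7 FPKM in Foxa1/2cKO. The groups overlapped, and the log2 difference of 0.09 was below its standard error of 0.10. Its 95% interval ran from -0.17 to 0.34, and the difference was 0.01 without Foxa1/2cKO 2 and 0.16 without Foxa1/2cKO 1. *Mbnl3*, an X-linked paralog associated with muscle precursors, was the lowest of the 3 genes at 6.70 and 7.17 FPKM in control and at 6.83 and 3.61 FPKM in Foxa1/2cKO. The low value came from Foxa1/2cKO 2 alone, with 347 reads, while Foxa1/2cKO 1 lay within the control range. The log2 difference was -0.40 with a standard error of 0.27, and it was -0.02 without Foxa1/2cKO 2 and -0.78 without Foxa1/2cKO 1, so its size rested on 1 sample.

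Summed over *Mbnl1*, *Mbnl2* and *Mbnl3*, muscleblind FPKM was 109.8 and 116 in control and 179 and 199 in Foxa1/2cKO, a 1.68-fold ratio of means. The difference lay in *Mbnl1*, since *Mbnl2* and *Mbnl3* together came to 26.5 and 27.7 FPKM in control and to 27.2 and 26.3 FPKM in Foxa1/2cKO. The share of *Mbnl1* in the sum was 75.9% and 76.1% in control and 84.8% and 86.8% in Foxa1/2cKO. The ratio of *Mbnl1* to *Mbnl2* FPKM was 4.20 and 4.29 in control and 7.46 and 7.59 in Foxa1/2cKO.

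*Celf1*, a widely expressed CELF protein with roles in splicing and in decay of GU-rich mRNA, was at 48.7 and 47.0 FPKM in control and at 48.2 and 51.7 FPKM in Foxa1/2cKO. The groups overlapped, with a log2 difference of 0.06, a standard error of 0.09 and a 95% interval from -0.17 to 0.29. It was 0.01 without Foxa1/2cKO 2 and 0.11 without Foxa1/2cKO 1. *Celf2*, which is expressed in T cells as well as in muscle and brain, was at 44.4 and 44.6 FPKM in control and at 47.1 and 62.5 FPKM in Foxa1/2cKO. Both Foxa1/2cKO samples were above both controls, but Foxa1/2cKO 1 by little. The log2 difference was 0.28 with a standard error of 0.15, and it was 0.08 without Foxa1/2cKO 2 and 0.48 without Foxa1/2cKO 1, so its size rested on 1 sample. *Celf2* spans 970 kb of chromosome 2, and 7.58% of its exon bases are overlapped by a gene on the other strand, *Gm26565*, whose reads may be counted with it.

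The other CELF genes added little. *Celf1* and *Celf2* made up 98.1% to 99.0% of CELF FPKM in every sample. *Celf5* was at 1.38 and 1.71 FPKM in control and at 1.18 and 1.03 FPKM in Foxa1/2cKO (log2 difference -0.27, standard error 0.18, unadjusted p = 0.192 by limma), *Celf3* and *Celf4* had 0 to 16 reads per sample, and *Celf6* was listed at 0. Summed CELF FPKM was 94.7 and 93.5 in control and 96.8 and 115 in Foxa1/2cKO. The ratio of summed muscleblind to summed CELF FPKM was 1.16 and 1.24 in control and 1.85 and 1.72 in Foxa1/2cKO. Summed muscleblind FPKM thus exceeded summed CELF FPKM in all 4 samples and by more in Foxa1/2cKO. The log2 ratio was 0.58 higher in Foxa1/2cKO, and 0.52 to 0.63 higher when 1 sample was left out. This ratio is of RNA levels and includes the *Mbnl1* values that were known when the genes were chosen. That it was above 1 in control rests on the gene lengths behind the FPKM. These were 5809 bases for *Mbnl1*, 7965 for *Celf1* and 9517 for *Celf2*. In recovered reads, the muscleblind genes together had fewer than the CELF genes in both controls and more in both Foxa1/2cKO samples.

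**Figure D2:**
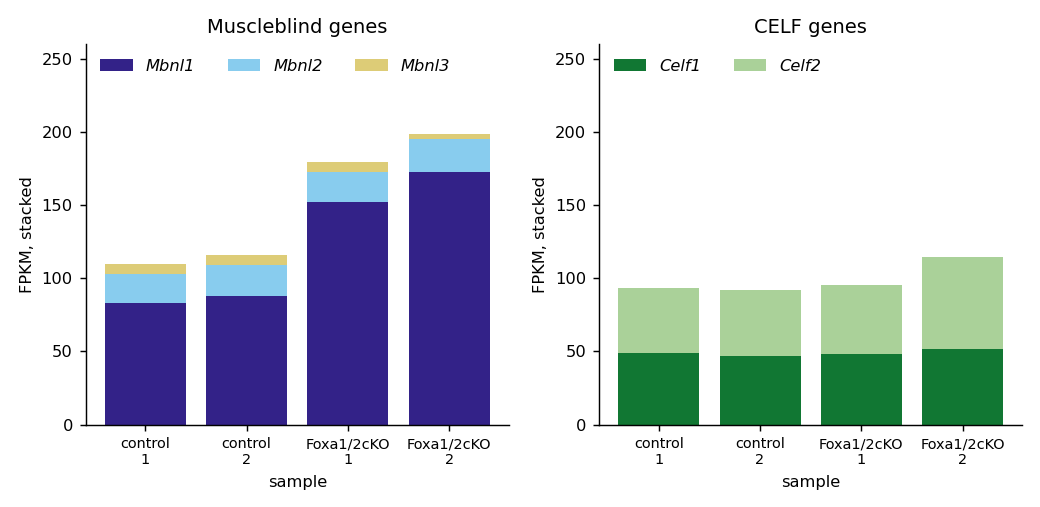
Stacked FPKM of the muscleblind genes (left) and of *Celf1* and *Celf2* (right) in each of the 4 samples, on axes from 0. The *Mbnl1* segment made up 75.9% and 76.1% of the muscleblind bar in control and 84.8% and 86.8% in Foxa1/2cKO, and the highest CELF bar was that of Foxa1/2cKO 2.

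Of the PTB genes, *Ptbp1*, which encodes a repressor of neuronal exons that binds pyrimidine-rich tracts, was the most abundant of the 10 genes. It was at 278 and 276 FPKM in control and at 265 and 295 FPKM in Foxa1/2cKO. The Foxa1/2cKO samples lay on either side of the controls, and the log2 difference was 0.01 with a standard error of 0.10 and a 95% interval from -0.24 to 0.27. Scaled to all recovered reads, the difference was -0.02, and it turned sign also when Foxa1/2cKO 2 was left out (-0.07). Its reads are less certain than those of the other genes, because 22.6% of the 50-base stretches of its longest transcript also occur in other annotated genes and 20.7% of its exon bases are overlapped by genes on the other strand. *Ptbp3*, a paralog first described in blood cells, was at 48.9 and 50.3 FPKM in control and at 59.0 and 46.5 FPKM in Foxa1/2cKO. Here Foxa1/2cKO 1 was above and Foxa1/2cKO 2 below both controls, and the log2 difference was 0.08 with a standard error of 0.14 and a 95% interval from -0.28 to 0.43. It was -0.09 without Foxa1/2cKO 1 and 0.25 without Foxa1/2cKO 2. *Ptbp2*, the paralog that takes over from *Ptbp1* in neurons, was detected at 16.9 and 18.3 FPKM in control and at 17.3 and 16.2 FPKM in Foxa1/2cKO. *Ptbp1* supplied 77.6% to 82.5% of PTB FPKM in every sample.

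*Khdrbs1* encodes Sam68, an RNA-binding protein that is phosphorylated by Src-family kinases and acts on signal-dependent exons in T cells. It was at 87.0 and 89.7 FPKM in control and at 98.8 and 94.3 FPKM in Foxa1/2cKO, with both Foxa1/2cKO samples above both controls by a small margin. The log2 difference was 0.13 with a standard error of 0.08 and a 95% interval from -0.09 to 0.34, and it was 0.09 to 0.16 when 1 sample was left out. Its paralogs were nearly absent, with 2 to 8 reads per sample for *Khdrbs3* and *Khdrbs2* listed at 0.

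*Qk*, the quaking gene, whose product regulates exons and RNA circularisation, was at 9.27 and 9.99 FPKM in control and at 11.4 and 9.05 FPKM in Foxa1/2cKO. The Foxa1/2cKO samples again lay on either side of the controls, with a log2 difference of 0.07, a standard error of 0.14 and a 95% interval from -0.29 to 0.43. It was -0.08 without Foxa1/2cKO 1 and 0.22 without Foxa1/2cKO 2. *Rbfox2*, which encodes a regulator of muscle, brain and epithelial exons, had 1 and 3 reads in control and 4 and 3 reads in Foxa1/2cKO, at most 0.0504 FPKM. It was at the level of single reads in each sample and was not tested. *Rbfox1* was listed at 0 and *Rbfox3* had 1 to 15 reads per sample, so no RBFOX gene reached 1 FPKM in any sample.

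Ordered by mean FPKM, control samples ran from *Ptbp1* through *Khdrbs1*, *Mbnl1*, *Ptbp3*, *Celf1*, *Celf2*, *Mbnl2*, *Qk* and *Mbnl3* to *Rbfox2*. *Khdrbs1* and *Mbnl1* overlapped in control and no other neighbours did. In Foxa1/2cKO, *Mbnl1* lay above *Khdrbs1* without overlap, and *Celf2* overlapped *Ptbp3* and *Ptbp3* overlapped *Celf1*, while no other neighbours did. *Mbnl1* supplied 13.3% and 13.9% of the summed FPKM of the 10 genes in control and 21.5% and 22.8% in Foxa1/2cKO. Without it the sum was 543 and 545 FPKM in control and 556 and 585 FPKM in Foxa1/2cKO.

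**Figure D3:**
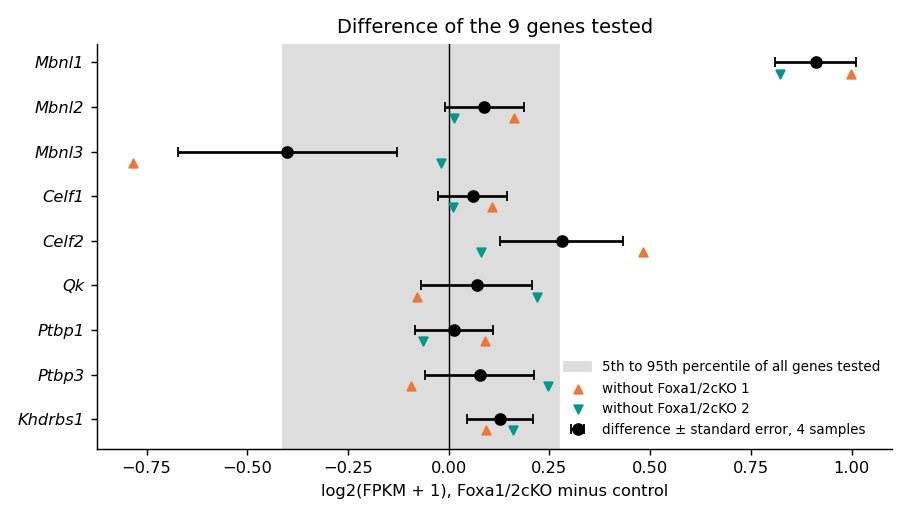
Difference of log2(FPKM + 1), Foxa1/2cKO minus control, for the 9 genes tested, with points for all 4 samples, bars of 1 standard error, triangles for the value without either Foxa1/2cKO sample, and grey for the 5th to 95th percentile of all genes tested (-0.41 to 0.27). *Mbnl1* lay at 0.91, outside the grey range with either sample left out, and *Celf2* and *Mbnl3* moved most when 1 Foxa1/2cKO sample was left out.

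Over the whole table, 10776 genes had at least 1 FPKM in at least 2 samples, and limma with Benjamini-Hochberg adjustment called 1 of them (0.00928%) at an adjusted p under 0.05. None of the 9 genes tested here was called (0 of 9). Of all genes tested, 490 (4.55%) had an unadjusted p under 0.05 by limma. With limma-voom on the recovered reads 0 genes of the whole table were called, and limma called 0 without either control, 2559 without Foxa1/2cKO 1 and 19 without Foxa1/2cKO 2. Both Foxa1/2cKO samples were above both controls for 3 of the 9 genes, *Mbnl1*, *Celf2* and *Khdrbs1*, against 18.9% of all genes, and below for 0 of 9, against 17.8%. The median log2 difference of the 9 genes was 0.08, and 0.07 without *Mbnl1*, against 0.01 for all genes tested. These counts use the contrast known when the genes were chosen and are given for description only.

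*Mbnl1* ranked 22 among all genes tested by difference of log2(FPKM + 1), and 92.7% of genes had a lower level in control. This scale understates the change of low genes, so the rank is not one of fold change. *Map3k15* and *Tle6* ranked 23 and 24, with ratios of means of 2.96 and 2.15 against 1.89 for *Mbnl1*. Of the 784 genes with at least the control level of *Mbnl1*, 0 had a log2 difference as large. Rank and count use the contrast known when *Mbnl1* was chosen and are given for description only. The gene length behind the FPKM was weakly related to the difference, with a Spearman rho across genes of 0.125 in Foxa1/2cKO 1 and 0.109 in Foxa1/2cKO 2, each set against the control mean. Genes are not independent replicates. Among the 1093 genes of 5000 to 7000 bases the median difference was 0.02 and 0.06 in these samples, and that of *Mbnl1* was 0.82 and 1.0. A median does not give the spread of these genes, and a part of gene length in the *Mbnl1* difference was not tested.

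Other splicing regulators outside the SR and hnRNP core families were counted from a list of 36 genes, among them Nova, Elavl, Esrp, Msi, Rbm, Tia, Pcbp and DEAD-box genes. Of these, 25 were tested, and 0 had an unadjusted p under 0.05 by limma or by limma-voom, with 0 called after Benjamini-Hochberg adjustment. Positive differences were found for 12 and negative for 13, with a median log2 difference of -5.07e-05. Without Foxa1/2cKO 1 the count at an unadjusted p under 0.05 was 9 (36%, 8 higher), against 39.2% of all genes in that fit, and 5 (20%) passed the adjusted threshold, against 23.7% of all genes. These 5 were *Ddx17*, *Rbm4b*, *Rbm38*, *Esrp2* and *Rbm5*, all higher and named after their values were seen. Without Foxa1/2cKO 2 the unadjusted count was 2 (8%), both lower, against 17.5% of all genes, with 0 called. The most abundant, also chosen after their values were seen, were *Ddx5*, an RNA helicase of spliceosomal complexes, at 428 to 480 FPKM, and *Pcbp1*, a poly(C)-binding protein, at 233 to 250 FPKM. Differences ranged from -0.19 for *Tial1*, a relative of the stress granule protein TIA1 that promotes use of weak 5′ splice sites (27.5 and 25.7 FPKM in control, 23.0 and 23.3 FPKM in Foxa1/2cKO), to 0.39 for *Esrp2*, an epithelial splicing regulator (2.53 and 2.92 against 2.81 and 5.23 FPKM). The value of *Esrp2* rested on Foxa1/2cKO 2, with a difference of 0.74 without Foxa1/2cKO 1 and 0.03 without Foxa1/2cKO 2. Both genes were named for their place at the ends of the range after their values were seen. Both Foxa1/2cKO samples were above both controls for 3 of the 25 genes (12%) and below for 7 (28%), against 18.9% and 17.8% of all genes. The neuronal regulators *Nova1*, *Nova2*, *Elavl2* and *Elavl4* and the heart and muscle regulator *Rbm20* had 0 to 2 reads per sample, and *Msi1*, *Srrm3* and *Srrm4* were listed at 0.

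**Figure D4:**
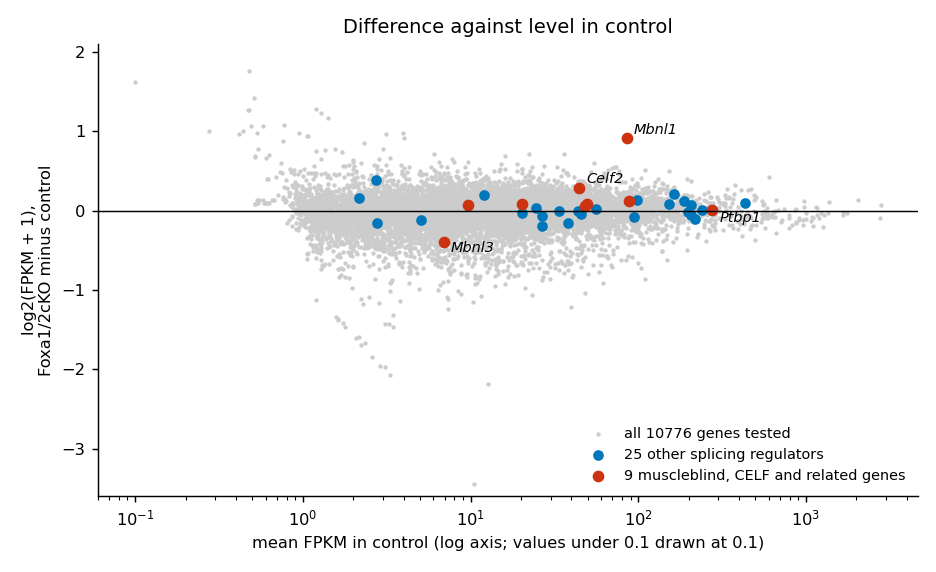
Difference of log2(FPKM + 1), Foxa1/2cKO minus control, against mean FPKM in control on a log axis, for 10776 genes (grey), 25 other splicing regulators (blue) and the 9 genes tested here (red). *Mbnl1*, chosen with this contrast known, lay at 85.7 FPKM and 0.91, with 0 of the 784 genes of at least its control level as far above 0. The other regulators lay between -0.19 and 0.39.

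The profile of *Mbnl1* over the 4 samples was set beside that of every gene tested, by the root mean square difference of log2(FPKM + 1) with each gene centred on its own mean. The 5 nearest were *Tle6* (0.041), *Map3k15* (0.058), *Mir6991* (0.073), *Epsti1* (0.110) and *Wdfy2* (0.118). *Epsti1*, an interferon-responsive gene, was the one of these with the highest level, at 35.1 and 37.0 FPKM in control and at 59.3 and 60.6 FPKM in Foxa1/2cKO. *Tle6*, a Groucho-family corepressor gene, was at 2.12 and 2.49 FPKM in control and at 4.64 and 5.28 FPKM in Foxa1/2cKO. *Map3k15* was at 0.784 and 0.745 FPKM in control and at 1.94 and 2.59 FPKM in Foxa1/2cKO. Its ratio of means was 2.96 against 1.89 for *Mbnl1*, since adding 1 FPKM before the log shrinks the change of low genes. *Mir6991* rested on 3 to 5 reads per sample over 70 bases. The nearest of the genes followed here was *Celf2* at rank 343, and *Mbnl3* was at rank 10226. Likeness over 4 samples from 2 groups is mainly likeness of the difference between the genotypes.

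The neighbours of *Mbnl1* on chromosome 3 that passed the level filter lay far from it. On the side of lower coordinates they were *P2ry13*, *P2ry14* and *Gpr171*, receptor genes 1262 to 1371 kb away, and on the other side *Rap2b*, a small GTPase gene, *Dhx36*, a helicase gene, and *E130311K13Rik*, 732 to 3285 kb away. *Rap2b* was at 14.5 and 13.2 FPKM in control and at 14.0 and 15.96 FPKM in Foxa1/2cKO, a log2 difference of 0.10 with a standard error of 0.11. *Dhx36* had a difference of 0.08 with a standard error of 0.11. Neither gene separated the genotypes. *E130311K13Rik* was lower in both Foxa1/2cKO samples, at 2.38 and 2.39 against 1.92 and 1.58 FPKM, with an unadjusted p of 0.115 by limma. Of the 6 neighbours 0 had an unadjusted p under 0.05 by limma, and the groups of the other 5 overlapped.

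**Figure D5:**
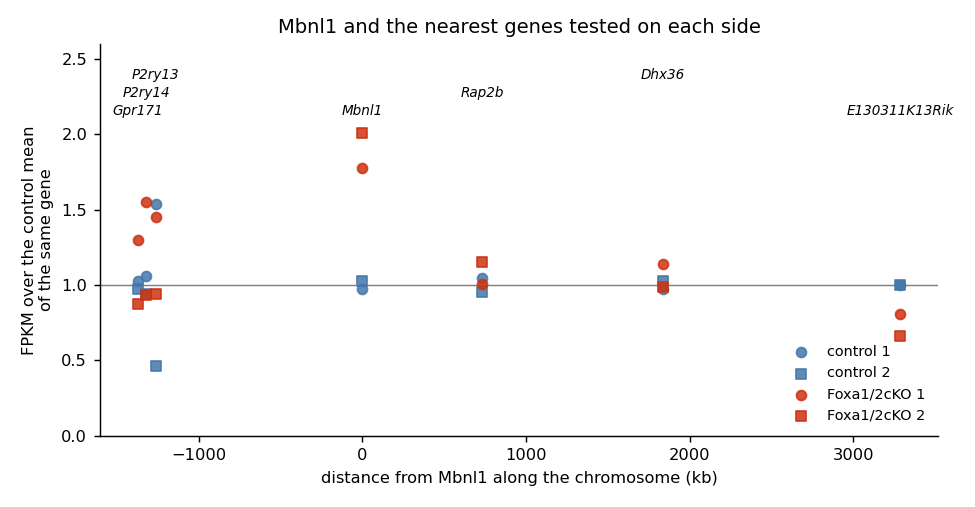
FPKM of *Mbnl1* and of the 3 nearest genes tested on each side, divided by the control mean of the same gene, against distance from *Mbnl1* in kb, with points for the 4 samples. The Foxa1/2cKO samples lay near 1.8 and 2.0 for *Mbnl1* and on both sides of, or close to, the controls for 5 neighbours, while *E130311K13Rik* was lower in both.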

How the data were processed

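RNA of CD69+DP thymocytes, sorted in 4 samples (2 per genotype), was sequenced. The authors aligned reads to mm10 with RefSeq genes (TopHat and Picard are named in the submitters' processing notes), counted them with HTSeq and used DESeq2. The deposited values are FPKM per gene and sample, and the step from counts to FPKM is not given in the sources used here. Nothing states that gene counting used strand.

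From the steps between FPKM values, whole reads were obtained for 100% of 16069 genes above 0 (tolerance 0.01 reads). The log2(FPKM + 1) values of genes with at least 1 FPKM in at least 2 samples were fitted with limma 3.58.1 (R 4.3.3) with a mean-variance trend, group as the only term, 2 residual and 2.69 prior degrees of freedom, and Benjamini-Hochberg adjustment at 0.05. An exact permutation test of 2 against 2 samples cannot go below p = 0.333. Fold changes on this scale understate the change of low genes. Fits were tested on simulated data. P-values set a difference against the spread between these samples, with the variance of each gene moderated by that of all genes. They do not cover variation beyond these 4 samples.

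The members and lists were chosen with earlier results of these data known. Named genes were the 10 members, their paralogs, other regulators with an unadjusted p under 0.05 and no overlap between groups (0 in this fit), the 5 nearest profiles, up to 3 neighbours on each side and the Foxa genes. Other regulators and markers named were chosen after their values were seen, or to describe a list. Alternatives were a pseudocount of 0.1, no filter, a minimum of 10 reads in each sample, scaling to the upper quartile or to all recovered reads, a replicate block, limma-voom on recovered reads, and leaving out each sample. Gene models were GENCODE M21, matched by symbol (1 gene for 95.4% of symbols). Exon usage was not analysed here. Figures used Python 3.11.15 and matplotlib 3.10.9.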

Additional observations from a re-analysis of the deposited data

How the results depend on the processing

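The log2 difference of *Mbnl1* was 0.88 to 0.92 in the settings that keep all samples, 0.91 with the replicate block, and 0.82 to 1.0 when 1 sample was left out. Of all genes tested, limma with Benjamini-Hochberg adjustment called 1, and 0 with a pseudocount of 0.1, no filter, at least 10 reads in every sample, scaling to all recovered reads or limma-voom, where 477, 802, 492, 536 and 517 genes had an unadjusted p under 0.05 against 490. It called 1 with upper-quartile scaling and 1 with the replicate block (378 unadjusted). Leaving out 1 sample gave 0 to 2559 calls: 0 without either control, 2559 without Foxa1/2cKO 1 and 19 without Foxa1/2cKO 2. Other splicing regulators with an unadjusted p under 0.05 numbered 0, but 2 with no filter (*Esrp1* and *Elavl3*, both lower), 1 with scaling to all recovered reads (*Tial1*, lower), and 0 to 9 when 1 sample was left out, with 9 of 25 (36%, 8 higher, 5 called) without Foxa1/2cKO 1 and 2 (8%, *Rbm24* and *Tial1*, both lower) without Foxa1/2cKO 2, against 39.2% and 17.5% of all genes in these fits. The named regulators were chosen after their values were seen. The cause was not tested. Where 1 sample was left out, the lone sample of a group is assumed to vary like the other group.

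Across genes, the differences between numbers 1 and 2 in control and in Foxa1/2cKO had a correlation of -0.06. This value gave no sign of pairing by replicate number. It cannot show which samples shared a sort, since each group gave only 1 such difference. With 2 samples per group, differences as small as those of *Celf2* or *Khdrbs1* could not be separated from sample spread, and genes of a few reads, such as *Rbfox2*, are limited by depth.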
